A study of Homo sapiens with 8 samples.

Results

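The genes described here report on signalling through the ERK pathway and, apart from the transcription factor gene ETV4, restrain it. Their RNA was followed in LY2 cells with and without reduced SRC-1. The genes are DUSP4, DUSP5, DUSP6, SPRY1, SPRY2, SPRY4, SPRED1, SPRED2, PHLDA1 and ETV4, found by symbol in the deposited table, 10 of its 63677 genes. LY2 is an endocrine-resistant breast cancer cell line of the MCF-7 lineage. The shNT group carried a stable non-targeting short hairpin RNA, and the shSRC1 group a stable short hairpin RNA against NCOA1, the gene of the nuclear receptor coactivator SRC-1. The cells of both groups grew in medium with stripped serum, 1e-08 mol/L 4-hydroxytamoxifen (the active tamoxifen metabolite) and 500 ng/mL puromycin, went through 72 h of steroid depletion, and were given 1e-07 mol/L 4-hydroxytamoxifen for 8 h. Neither group was free of tamoxifen, and cells of a tamoxifen-sensitive line were not analysed here. Each group held 4 poly(A) RNA libraries. The labels give neither the number of hairpin sequences or clones behind each group nor whether the replicates were separate cultures, so the spread behind every p-value is that of these libraries alone and may be technical.

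The ERK pathway passes signals from growth factor receptors through the small GTPase Ras and the kinases RAF, MEK and ERK to transcription factors in the nucleus. Active ERK switches on genes whose products then shut the pathway down at several levels, and the RNA of these genes is commonly read as a record of recent ERK output. In breast cancer the pathway is a known route by which cells grow under endocrine therapy. The values here are RNA levels, and ERK phosphorylation was not analysed here.

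Values are normalized reads, that is, reads assigned to a gene divided by the size factor of the library. Whole reads could be recovered from them, 33771775 in shSRC1 replicate 2 and 58459196 to 67022036 in each of the other 7 libraries. The 10 genes held between 132 and 7045 recovered reads per library, and all 10 passed the filter on low values. NCOA1 itself stood at 4381, 4212, 4467 and 4525 in shNT replicates 1 to 4 and at 1927, 1895, 2215 and 2107 in shSRC1 replicates 1 to 4. Its log2 fold change was -1.11 (SE 0.08, limma adjusted p = 2.25e-07). The luminal markers EPCAM, CDH1, KRT8, KRT18, KRT19, ESR1, GATA3 and FOXA1 together held 340043 to 416533 normalized reads in shNT and 513845 to 583254 in shSRC1, and 3 of these 8, the keratins, rose. Of 6 leukocyte markers 2 could be tested and neither passed the threshold. Their summed level was 34.3 to 91.9 in shNT and 26.2 to 73.3 in shSRC1. Of 6 fibroblast markers 5 could be tested and none passed, with a summed level of 1632 to 2184 in shNT and 1452 to 1978 in shSRC1, nearly all of it COL1A1. All 10 ribosomal protein genes looked at rose, with a median log2 fold change of 0.53. Against the mean of all libraries, their median log2 deviation was -0.67 in shNT replicate 3, the other 3 shNT libraries lying at -0.22 to -0.04. Spearman's rho between a library's deviations and transcript GC content, across genes, was lowest in shSRC1 replicate 4 (-0.22) and highest in shSRC1 replicate 1 (0.48). The part of these library differences in the results below was tested only by leaving libraries out and by a correction for transcript length and GC content.

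Lower SRC-1 went with feedback genes moving in opposite directions. DUSP4, DUSP5, SPRY4 and ETV4 fell, PHLDA1 and SPRY2 rose, and DUSP6, SPRY1, SPRED1 and SPRED2 did not pass the test. Among all 19559 genes tested, 23.2% passed limma's adjusted p of 0.05, 12.0% higher and 11.2% lower in shSRC1. The 10 genes had 2 higher and 4 lower, a share of 60%, and their fold changes had a median absolute size of 0.42 on the log2 scale against 0.24 over all genes. Their signed median was -0.18, against -0.0024 over all genes. The libraries of the groups did not overlap for 9 of the 10 genes, where 29.0% of all genes did not. Since the genes were chosen with earlier results of these data known, the shares describe them and test nothing.

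**Figure D1:**
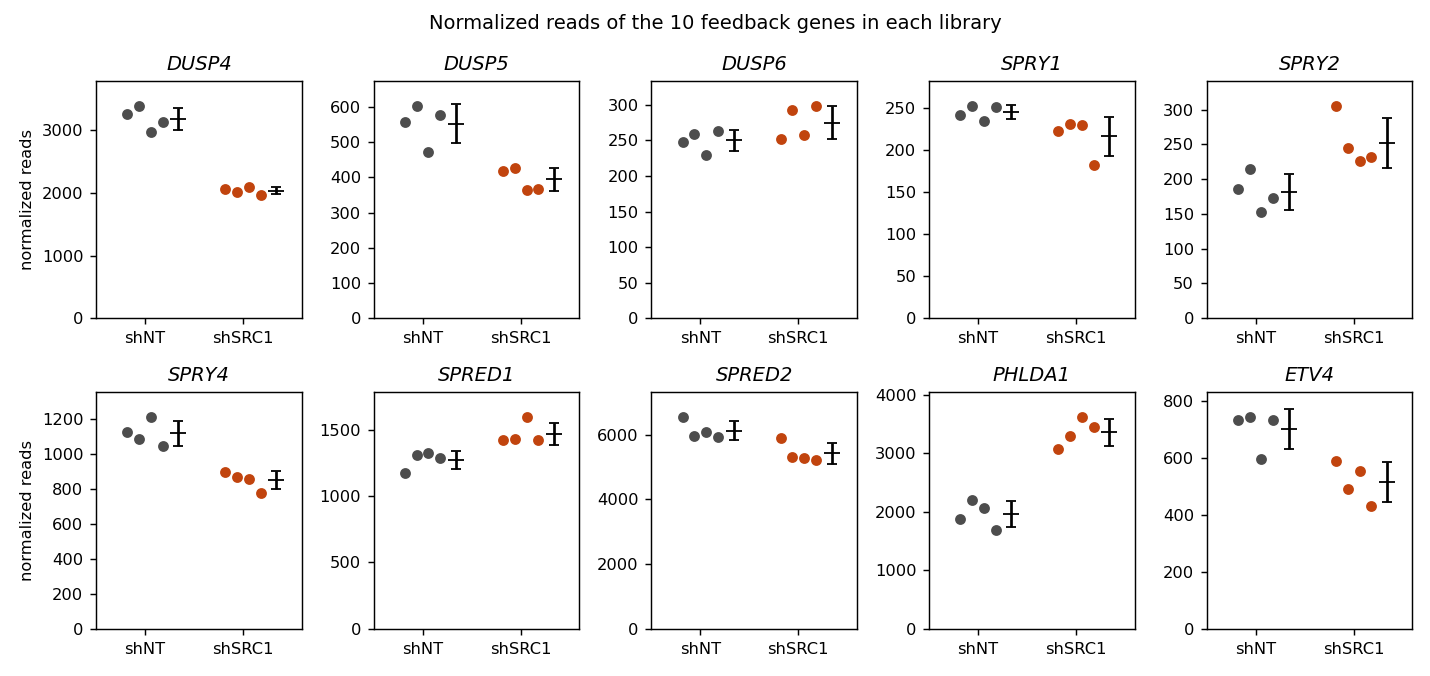
Normalized reads (vertical axes, each from 0) of the 10 feedback genes in the 4 shNT and 4 shSRC1 libraries, one point per library, with the mean and SD beside each group. DUSP4 fell from 3181 to 2036 and PHLDA1 rose from 1961 to 3359 on average, and the groups overlap for DUSP6 alone.

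The genes of the dual-specificity phosphatases, which remove phosphate from the threonine and tyrosine that activate ERK, did not move as one. DUSP4, which encodes a nuclear phosphatase of ERK and other MAP kinases, stood at 3253, 3380, 2965 and 3126 normalized reads in shNT replicates 1 to 4. In shSRC1 replicates 1 to 4 it stood at 2062, 2017, 2093 and 1971. All 4 shSRC1 libraries lay close together and far under the lowest shNT library. The mean fell from 3181 ± 177 to 2036 ± 53 (SD, n = 4 each), by 36%, with a log2 fold change -0.64 (SE 0.08, 95% interval -0.80 to -0.48, limma adjusted p = 4.28e-05). Fewer cells with the RNA and less RNA per cell cannot be told apart in such bulk libraries. DUSP5, whose product is a nuclear phosphatase selective for ERK, stood at 559, 602, 473 and 578 in shNT and at 418, 427, 363 and 368 in shSRC1. Its groups did not overlap, although shNT replicate 3 (473) lay near shSRC1 replicate 2 (427). The mean fell from 553 ± 56 to 394 ± 33 (n = 4 each), with log2 fold change -0.49 (SE 0.11, limma adjusted p = 0.0061).

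DUSP6, which encodes the cytoplasmic phosphatase selective for ERK and is among the most used readouts of the pathway, behaved differently. It stood at 248, 259, 230 and 264 in shNT and at 253, 292, 258 and 298 in shSRC1, so the groups overlapped. The log2 fold change was 0.13 (SE 0.12, 95% interval -0.11 to 0.38, limma adjusted p = 0.414). That interval leaves out a fall of the size seen in DUSP4 or DUSP5. In the plot of within-library ratios, the ratio of DUSP4 to DUSP6 fell from between 11.8 and 13.1 in shNT to between 6.60 and 8.14 in shSRC1, and that of DUSP5 to DUSP6 from between 2.05 and 2.31 to between 1.24 and 1.65. Such ratios barely depend on how libraries are scaled, and since they are not divided by gene length only their change between groups is read. In all, 7 ratios within the gene families were compared, a set chosen after the values had been seen. An exact two-sided permutation test gave p = 0.0286 for each of these 2, the smallest that 4 against 4 libraries allow, and 0.04 after Benjamini-Hochberg adjustment over the 7. Both ratios were bound to separate, however values were matched within a group. The lowest DUSP4 or DUSP5 value over the highest DUSP6 value in shNT exceeded the highest over the lowest in shSRC1. These p-values were fixed by this and add nothing to the values of the genes. Others of the 7 were also bound to separate, as given below, and all of them enter that adjustment. The ratio of DUSP4 to DUSP5 ran from 5.40 to 6.25 in shNT and from 4.72 to 5.74 in shSRC1, and the test did not separate the groups (exact permutation p = 0.114, adjusted 0.114).

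**Figure D2:**
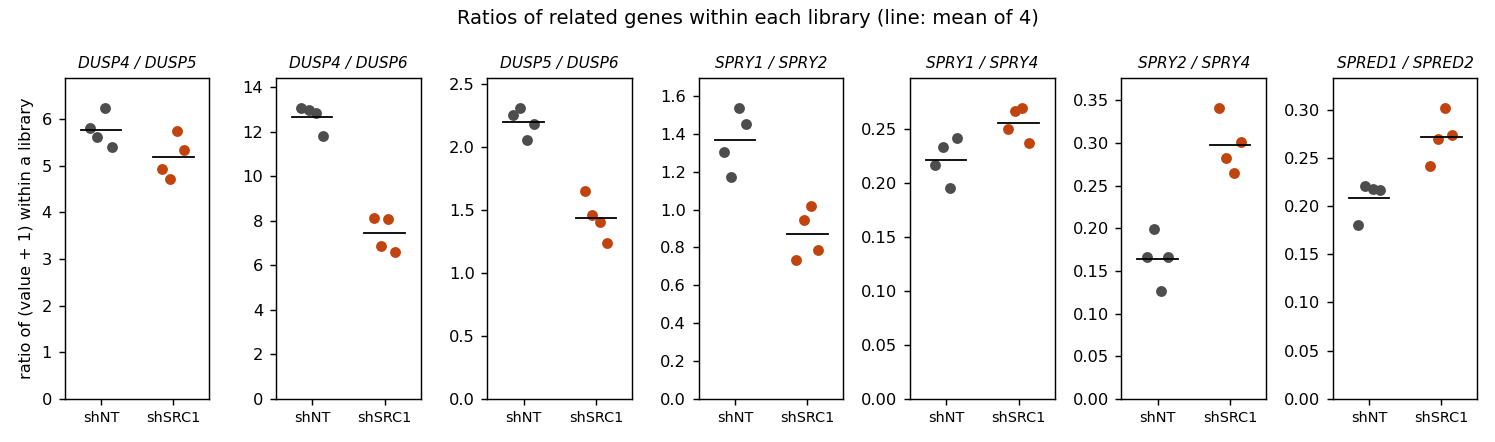
Ratio of the values of 2 related genes within each library (vertical axes, each from 0, value + 1 for both genes), one point per library, with the mean of 4 as a line. The groups do not overlap in 5 of the 7 ratios and overlap for DUSP4 to DUSP5 and for SPRY1 to SPRY4. The SPRY1 to SPRY2, SPRY2 to SPRY4 and SPRED1 to SPRED2 ratios were bound to separate, since their genes did so in opposite directions. The DUSP4 to DUSP6 and DUSP5 to DUSP6 ratios were bound to separate by the ranges of their genes in each group.

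Sprouty proteins act above the phosphatases, where they dampen the passage of receptor signals to Ras and RAF. SPRY4, the most abundant of the 3 Sprouty genes per kb, stood at 1123, 1084, 1209 and 1047 in shNT and at 894, 870, 858 and 773 in shSRC1. Every shSRC1 library was below every shNT library. The mean fell from 1116 ± 69 to 849 ± 52 (n = 4 each), with log2 fold change -0.39 (SE 0.09, limma adjusted p = 0.00574). SPRY2 went the other way, from 186, 215, 152 and 173 in shNT to 305, 245, 226 and 232 in shSRC1. The gap between the groups was narrow, 215 in the highest shNT library against 226 in the lowest shSRC1 library. The mean rose from 182 ± 26 to 252 ± 36 (n = 4 each), with log2 fold change 0.47 (SE 0.14, 95% interval 0.16 to 0.78, limma adjusted p = 0.0293). This call was lost when any of 5 libraries was left out, with limma adjusted p-values of 0.0532, 0.0574 and 0.0633 without shNT replicates 1, 3 and 4 and of 0.0906 and 0.0547 without shSRC1 replicates 1 and 2. Over those 5 the log2 fold change lay between 0.38 and 0.49.

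SPRY1 stood at 242, 252, 235 and 252 in shNT and at 223, 231, 231 and 182 in shSRC1. The groups did not overlap, with 235 as the lowest shNT value and 231 as the highest shSRC1 value, for which an exact two-sided permutation test gives p = 0.0286. In limma its log2 fold change of -0.18 (SE 0.12, 95% interval -0.44 to 0.08) did not pass (adjusted p = 0.285), and its p before adjustment also missed the threshold. The SPRY2 to SPRY4 ratio rose from between 0.127 and 0.199 in shNT to between 0.265 and 0.342 in shSRC1, a difference of 0.87 in log2 ratio. The SPRY1 to SPRY2 ratio fell from between 1.17 and 1.54 to between 0.733 and 1.02. SPRY2 separated the groups upward, and SPRY1 and SPRY4 separated them downward, so both ratios were bound to separate. Their exact permutation p of 0.0286 (adjusted over 7 ratios 0.04) was fixed by this and adds nothing to the values of the genes. For SPRY1 to SPRY4 the groups overlapped (exact permutation p = 0.0571, adjusted 0.0667).

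The Spred proteins bring the Ras inactivator neurofibromin to the membrane. Neither SPRED1 nor SPRED2 passed the test, and their fold changes had opposite signs. SPRED1 stood at 1177, 1309, 1328 and 1284 in shNT and at 1422, 1429, 1594 and 1425 in shSRC1. A log2 fold change at 0.20 (SE 0.08, limma adjusted p = 0.0869) missed the threshold, although every shSRC1 library exceeded every shNT library. SPRED2, the most abundant of the 10 genes per kb, stood at 6537, 5941, 6094 and 5922 in shNT and at 5889, 5310, 5276 and 5209 in shSRC1. The groups nearly met, at shNT replicate 4 and shSRC1 replicate 1. Its log2 fold change was -0.18 (SE 0.08, limma adjusted p = 0.11). The ratio of SPRED1 to SPRED2 stood at 0.180 to 0.220 in shNT and 0.242 to 0.302 in shSRC1, a difference of 0.38 in log2 ratio. The groups did not overlap for either gene, in opposite directions, so the ratio was bound to separate. Its exact permutation p of 0.0286 (adjusted over 7 ratios 0.04) was fixed by this and adds nothing to the values of the genes. After correction of the libraries for length and GC content of the transcripts, both genes passed the limma threshold, SPRED1 at 0.33 (adjusted p = 0.0043) and SPRED2 at -0.21 (adjusted p = 0.0183).

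PHLDA1 had the largest change of the 10. It encodes a small protein with a pleckstrin homology-like domain that is induced by ERK and restrains ERBB receptor signalling. It stood at 1878, 2211, 2058 and 1698 in shNT and at 3067, 3298, 3618 and 3455 in shSRC1. Every shSRC1 library lay far above every shNT library. The mean rose from 1961 ± 222 to 3359 ± 234 (n = 4 each), a ratio of 1.71 and with log2 fold change 0.78 (SE 0.09, 95% interval 0.58 to 0.98, limma adjusted p = 4.77e-05). ETV4, which encodes a transcription factor of the PEA3 branch of the ETS family and is itself an ERK target, fell. It stood at 733, 742, 595 and 733 in shNT and at 588, 490, 553 and 430 in shSRC1, so that shNT replicate 3 lay close to shSRC1 replicate 1 and the rest lay apart. The mean fell from 701 ± 71 to 515 ± 70 (n = 4 each), with log2 fold change -0.45 (SE 0.12, limma adjusted p = 0.0137). In the GENCODE 29 annotation, ETV4 overlaps DHX8 on the other strand. DHX8 had a log2 fold change of 0.13, and whether reads were counted by strand is not given in the sources used here, so reads of the overlap are uncertain.

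**Figure D3:**
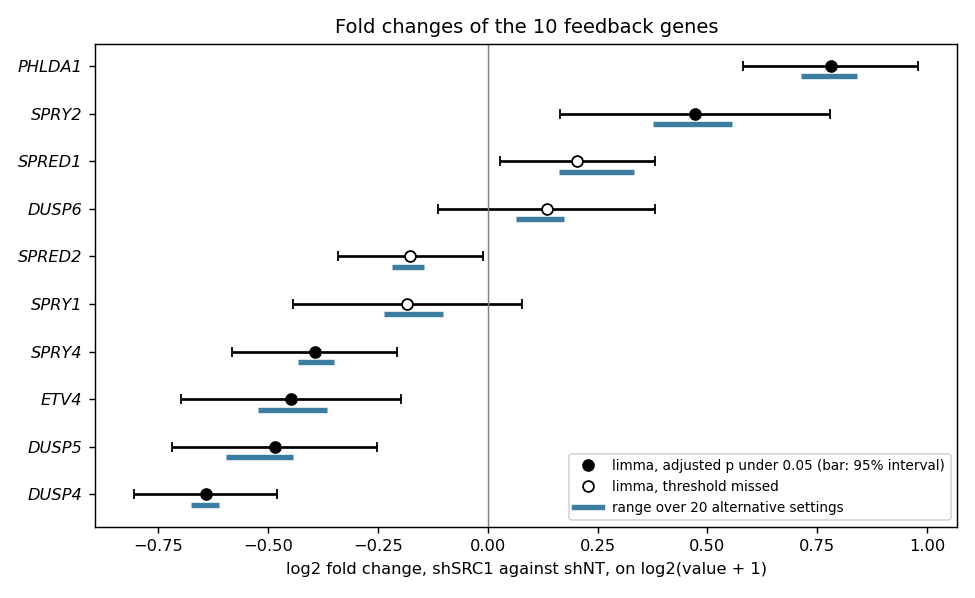
Log2 fold change of shSRC1 against shNT on the log2(value + 1) scale (horizontal axis) for the 10 feedback genes. Points and black bars are limma estimates with 95% intervals, filled where the adjusted p is under 0.05, and blue bars span the estimates over 20 alternative settings, from -0.68 to -0.61 for DUSP4 and from 0.71 to 0.84 for PHLDA1.

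Divided by the length of their exons in GENCODE 29, the genes spanned a wide range of levels. In shNT, SPRED2 stood highest at 1188 ± 56 normalized reads per kb, followed by DUSP4 at 438 ± 24 and PHLDA1 at 243 ± 27 (SD, n = 4 each). DUSP5, ETV4, SPRY4 and SPRED1 followed between 211 and 154, and from PHLDA1 down to SPRED1 each gene's libraries overlapped with those of the next. SPRY1, SPRY2 and DUSP6 were lowest, at 61.9, 59.7 and 54.0 reads per kb, and their libraries overlapped. In shSRC1, PHLDA1 (416 ± 29) stood above DUSP4 (281 ± 7), the reverse of their order in shNT, and no library of either gene overlapped with the other in either group. SPRY2, at 82.9 ± 11.9 per kb in shSRC1, stood apart from DUSP6 (59.4) and SPRY1 (54.7), which still overlapped.

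Within the groups, some libraries stood at the end of the range for several genes. In shNT replicate 3, the library with the lowest ribosomal protein, KRT8 and KRT19 values, 6 of the 10 genes were at their lowest of the 4 shNT libraries, namely DUSP4, DUSP5, DUSP6, SPRY1, SPRY2 and ETV4. Replicate 2 of shNT held the highest value of 6 genes, DUSP4, DUSP5, SPRY1, SPRY2, PHLDA1 and ETV4. In the shSRC1 group, replicate 4 was lowest for 5 genes. After the mean of each group was taken out, Pearson's r over the 8 libraries ran from -0.81 between DUSP6 and SPRY4 to 0.79 between DUSP5 and SPRY2 among the pairs of the 10 genes. It was -0.56 between SPRED1 and SPRED2. These values are descriptions over 8 libraries that share depth and composition. Without shNT replicate 3 and shSRC1 replicate 2 together, DUSP4, DUSP5, SPRY4 and ETV4 still fell and PHLDA1 rose in limma, and SPRY2 had an adjusted p of 0.0785.

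The wider pathway was read from lists of related genes. Their counts stand beside the 23.2% of all 19559 tested genes that passed, 12.0% higher and 11.2% lower. The lists are short, and none was tested as a set. Of 8 other genes commonly driven by ERK, 4 fell, 1 rose and 3 did not pass, with a median log2 fold change of -0.37. The ephrin receptor gene EPHA4 stood at 945, 945, 1100 and 1007 in shNT and at 534, 544, 503 and 533 in shSRC1, with log2 fold change -0.92 (SE 0.09, limma adjusted p = 7.06e-06). FOSL1, which encodes the AP-1 subunit FRA-1, fell from 396 ± 21 to 196 ± 34 (n = 4 each). The immediate early gene EGR1 fell from 5458 ± 1300 to 3198 ± 474. EPHA2, named here after its value was seen, fell by 0.35 on the log2 scale (limma adjusted p = 0.0247) with groups that overlapped. EPHA2 lost its call without shNT replicate 1 (limma adjusted p = 0.0817) and without shSRC1 replicates 2, 3 or 4 (0.0697, 0.0633 and 0.071). CCND1, the cyclin D1 gene, rose from 18458 ± 706 to 25129 ± 1004, or by 0.45 on the log2 scale (limma adjusted p = 0.00118). The PEA3-family gene ETV5 had a log2 fold change of -0.38 (limma adjusted p = 0.0955), beside -0.45 for ETV4. MYC and IER3, which also missed the threshold, had positive values of 0.16 and 0.03 (limma adjusted p = 0.19 and 0.836).

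Among 7 other MAP kinase phosphatase genes, DUSP2 alone passed the test. DUSP2, which encodes a nuclear phosphatase of ERK and other MAP kinases, stood at 1507, 1654, 1193 and 1504 in shNT and at 3329, 2916, 2837 and 2521 in shSRC1. Its log2 fold change was 0.99 (SE 0.11, limma adjusted p = 2.25e-05), opposite in sign to those of DUSP4 and DUSP5. The stress-responsive DUSP1 had a log2 fold change of 0.03 (limma adjusted p = 0.86), and the other 5 lay between -0.22 and 0.18. Of the other Sprouty, Spred, PHLDA and PEA3 genes on the list, 4 of 5 could be tested. SPRED3 fell from 58.1 ± 9.6 to 28.4 ± 5.1 (n = 4 each), with log2 fold change -1.01 (SE 0.23, limma adjusted p = 0.00621), while SPRY3, PHLDA2 and PHLDA3 had values of 0.06, -0.06 and 0.30 and missed the threshold. ETV1, the remaining PEA3 gene, was below the filter with means of 1.36 and 1.38 normalized reads.

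Among the kinases and adaptors that carry the signal, few genes passed the test. Of 17 core genes from GRB2 to MAPK3, 1 fell, none rose and 16 did not pass, with a median log2 fold change of 0.03. The one that fell was PTPN11, which encodes the phosphatase SHP2 that couples receptors to Ras, from 20716 ± 1145 to 15420 ± 1462 (n = 4 each), with log2 fold change -0.43 (SE 0.09, limma adjusted p = 0.00357). MAPK3, the gene of ERK1, had a log2 fold change of 0.0040 (95% interval -0.21 to 0.21, limma adjusted p = 0.98). HRAS stood at 0.12 and NRAS at -0.05 (limma adjusted p = 0.455 and 0.758).

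Of 14 Ras GTPase-activating proteins and other brakes, 1 rose and 2 fell. DAB2IP, a Ras GTPase-activating protein, rose by 0.31 (limma adjusted p = 0.0178), while ERRFI1, an inhibitor of ERBB receptors, fell by 0.25 (adjusted p = 0.0256). ERRFI1 lost its call without shNT replicates 1, 2 or 4 (adjusted p = 0.0585, 0.0621 and 0.0677) and without shSRC1 replicates 2 or 4 (0.0804 and 0.0546). NF1, the neurofibromin gene, had a log2 fold change of -0.17 (95% interval -0.35 to 0.0016, limma adjusted p = 0.137). Of 13 ERK-directed effectors 12 could be tested, with 2 higher, 2 lower and 8 past neither side of the threshold. RPS6KA2, the gene of the ERK-activated kinase RSK3, rose from 248 ± 24 to 475 ± 57 (n = 4 each), with log2 fold change 0.93 (SE 0.12, limma adjusted p = 8.22e-05). Among the ternary complex factors, which ERK phosphorylates at serum response elements, ELK3 and ELK4 fell by 0.42 and 0.48 and ELK1 rose by 0.32 (limma adjusted p = 0.00328, 0.00321 and 0.0327). ELK1 lost its call without shNT replicate 4 (adjusted p = 0.0612) and without shSRC1 replicates 1 or 2 (0.0959 and 0.0667).

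**Figure D4:**
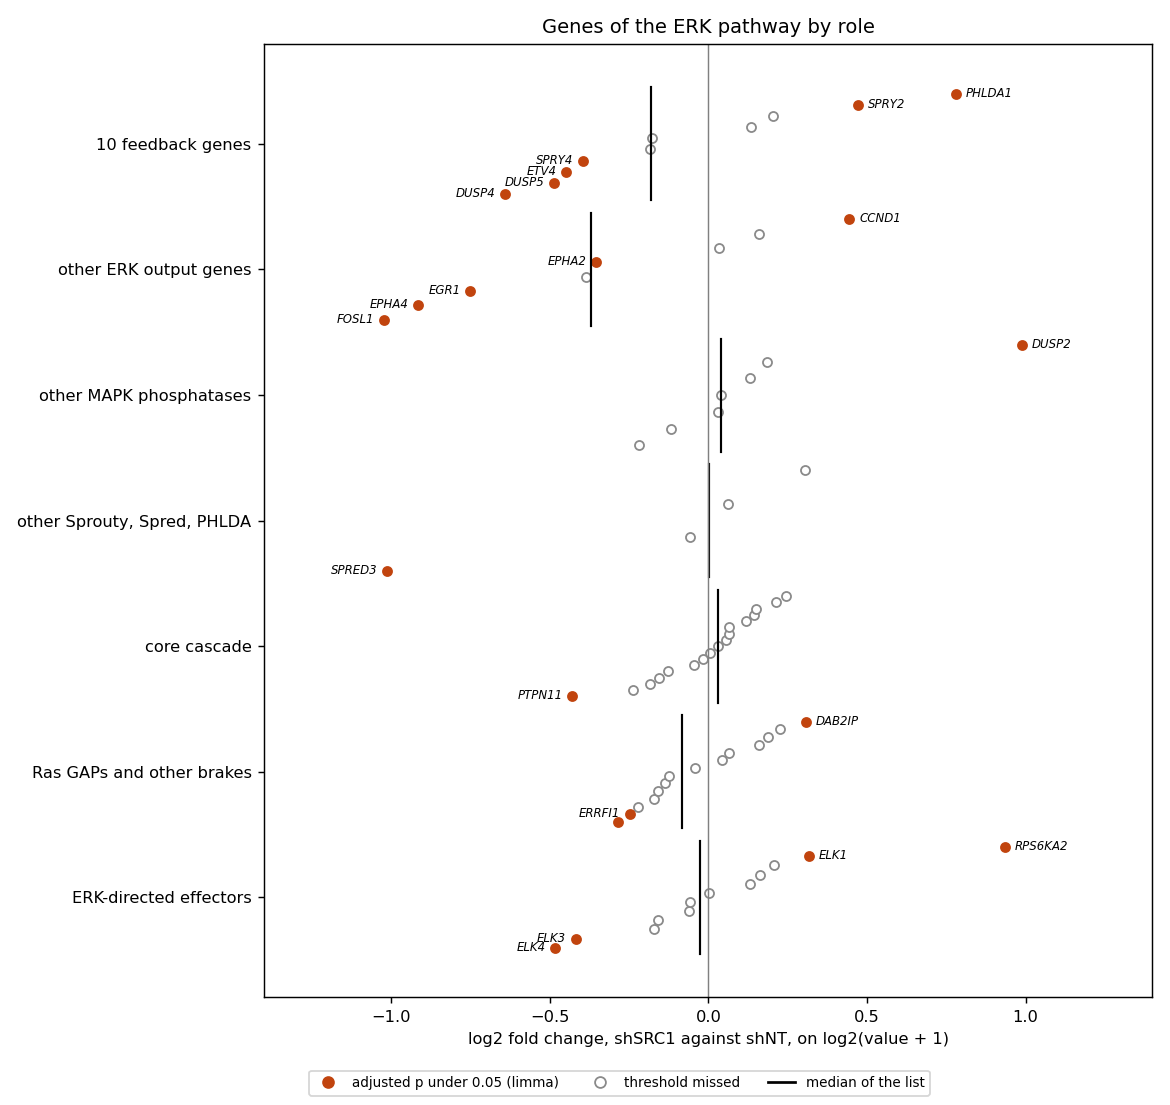
Log2 fold change of shSRC1 against shNT (horizontal axis) for the tested genes of 7 lists (vertical axis), one circle per gene, filled where limma's adjusted p is under 0.05 and labelled where the text names the gene, with the median of each list as a line. The medians are -0.18 for the 10 feedback genes, -0.37 for other ERK output genes and 0.03 for the core cascade.

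The median log2 fold change differed between chromosomes, at -0.20 over the tested genes of chromosome 10 and 0.11 over those of chromosome 17, so each feedback gene was set beside the 10 tested genes on either side of it. PHLDA1, on chromosome 12, rose among neighbours of which 8 of 20 fell and none rose, with a median of -0.32. SPRY2, on chromosome 13, likewise rose among neighbours with a median of -0.19, of which 6 fell and 3 rose. DUSP5, on chromosome 10, fell with its surroundings, where 7 of 20 neighbours fell, 1 rose and the median was -0.20, close to that of all 716 tested genes of the chromosome. The genes directly beside it, SMNDC1 and SMC3, had log2 fold changes of -0.23 and -0.76 (limma adjusted p = 0.0367 and 0.00281). DUSP4, on chromosome 8, fell although none of its 20 neighbours passed the test as lower, 2 passed as higher, and their median was 0.12. SPRY4 fell among neighbours with a median of -0.05, of which 2 fell and 1 rose, and ETV4 among neighbours with a median of 0.04, of which 5 fell and 2 rose. Of the neighbours of SPRED1, 4 rose and none fell, with a median of 0.11. DUSP6, whose own value was 0.13, sat among neighbours with a median of -0.34, of which 4 fell and 1 rose. Those of SPRY1 had 6 lower and 1 higher, and those of SPRED2 had 2 lower and none higher. Directly beside other feedback genes, KITLG (by DUSP6), KRR1 (by PHLDA1) and SPATA5 (by SPRY1) fell, with log2 fold changes of -0.74, -0.57 and -0.28. Their limma adjusted p-values were 0.000286, 0.00272 and 0.0359. ARHGAP26, by SPRY4, rose by 0.30 (limma adjusted p = 0.027). The remaining directly adjacent genes missed the threshold. The part of chromosomal position in the fall of DUSP5 was not tested.

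**Figure D5:**
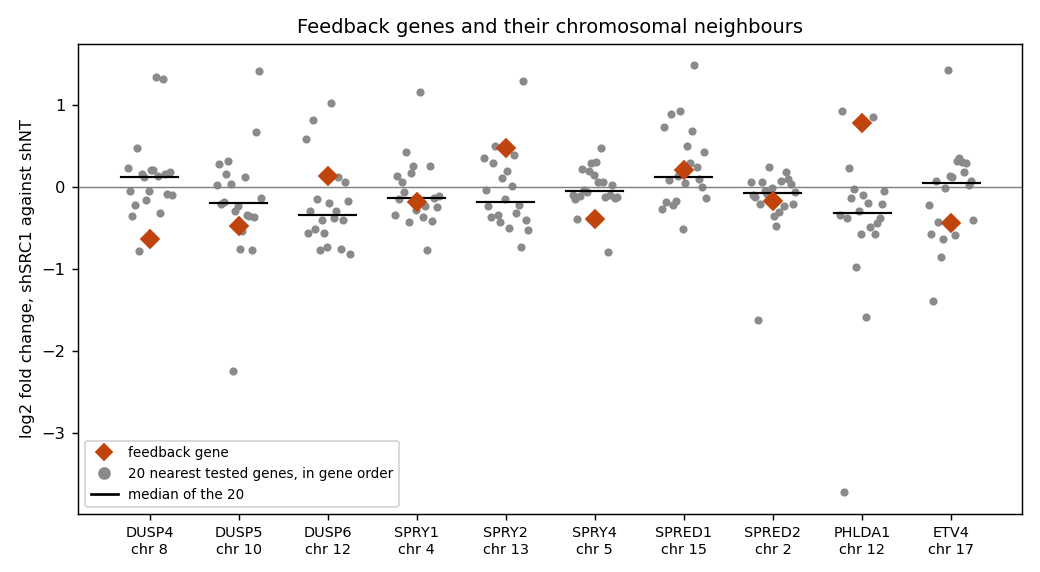
Log2 fold change of shSRC1 against shNT (vertical axis) of each feedback gene (diamond) and of the 20 nearest tested genes on its chromosome (circles), with the median of the 20 as a line. PHLDA1 (0.78) lies above a median of -0.32, DUSP4 (-0.64) below a median of 0.12, and SPRED2 and SPRY1 close to their neighbours' medians of -0.08 and -0.14.

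Start regions were available from RefSeq for 7 of the 10 genes, as 11 windows of 250 bases before and 50 after a transcript start (GRCh38.p14). DUSP4, DUSP5 and ETV4 had no entry. The 250 bases before the start are shown for PHLDA1 and SPRY2, which rose, and for SPRED1 and SPRED2, whose ratio changed. Each runs 5′ to 3′ on the strand of the gene, with capitals for a match to GAGGAAG or its reverse complement CTTCCTC. SPRY2 and SPRED2 have further starts, and the first is shown.
PHLDA1 (chr12:76031777-76032026, minus strand): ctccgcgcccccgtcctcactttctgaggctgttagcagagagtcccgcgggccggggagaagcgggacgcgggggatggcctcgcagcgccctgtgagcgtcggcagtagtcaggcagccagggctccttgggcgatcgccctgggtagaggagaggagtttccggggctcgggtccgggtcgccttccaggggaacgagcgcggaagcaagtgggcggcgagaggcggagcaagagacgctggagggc
SPRY2 (chr13:80341127-80341376, minus strand): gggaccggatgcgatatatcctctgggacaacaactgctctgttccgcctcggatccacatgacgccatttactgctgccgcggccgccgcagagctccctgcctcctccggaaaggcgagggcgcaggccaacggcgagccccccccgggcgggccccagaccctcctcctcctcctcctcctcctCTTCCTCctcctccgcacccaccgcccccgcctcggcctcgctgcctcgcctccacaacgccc
SPRED1 (chr15:38252586-38252835, plus strand): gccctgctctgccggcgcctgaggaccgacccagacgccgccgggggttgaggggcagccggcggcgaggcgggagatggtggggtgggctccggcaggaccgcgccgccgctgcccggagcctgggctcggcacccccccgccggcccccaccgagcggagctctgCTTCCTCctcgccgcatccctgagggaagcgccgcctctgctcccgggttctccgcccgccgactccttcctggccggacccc
SPRED2 (chr2:65432600-65432849, minus strand): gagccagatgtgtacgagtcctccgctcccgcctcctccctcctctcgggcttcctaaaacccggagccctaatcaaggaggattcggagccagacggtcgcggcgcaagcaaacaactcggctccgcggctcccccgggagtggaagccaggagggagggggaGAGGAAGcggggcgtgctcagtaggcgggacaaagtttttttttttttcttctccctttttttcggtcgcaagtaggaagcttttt
GAGGAAG holds the core bound by PEA3-family factors such as ETV4. Searched on both strands, it occurred in 5 of the 11 windows, or 45.5%, against 13.6% of all 35116 windows of the same length. Those 5 belong to SPRY2 (2 windows), SPRED1, SPRED2 and DUSP6, and the PHLDA1, SPRY1 and SPRY4 windows had none. The match in SPRY2 begins 63 bases before the start, within a run of repeated CTC triplets. The AP-1 site TGACTCA occurred in 1 window, the second start of SPRED2, and in 4.95% of all windows. The 2 core forms of the serum response element searched, the cyclic AMP element TGACGTCA, the ETS form CCGGAAGT and the estrogen response element with any 3 bases in its middle occurred in none of the 11 and in 0.0342%, 0.0313%, 1.85%, 4.14% and 0.057% of all windows. GAGGAAG and CCGGAAGT share the letters GGAAG, and the latter was absent here. A match describes letters in these windows, and the windows with a match include genes that rose and genes that did not pass the test.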

How the data were processed

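The data are 8 RNA-seq libraries of LY2 cells, 4 shNT and 4 shSRC1, grouped by the sample titles. The table the authors deposited holds a normalized signal, reads per gene over a library-wide size factor. The submitters' processing notes name TopHat2 2.0.12, HTSeq 0.6.1, DESeq2, DESeq and GRCh37. How HTSeq was set, and which annotation it read, is not given in the sources used here. Every value was a whole multiple of 1 step per library within 0.001 reads (100% of values), so whole reads were recovered. The main test was limma 3.58.1 (R 4.3.3, trend and robust variances) on log2(value + 1), without a replicate block, over 19559 genes reaching 10 normalized reads in 4 or more libraries. Fold changes on that scale understate those of low genes. P-values, all two-sided, were adjusted over all tested genes by Benjamini-Hochberg, with a threshold of 0.05. All 104 listed symbols, repeats over lists included, were matched, those on several rows by Ensembl identifier. Intervals cover 95%. The fit and its alternatives (edgeR 4.0.16, DESeq2 1.42.0) were tested on simulated data. The members, lists and tests were chosen with earlier results of these data known. Named were NCOA1, the members, up to 4 genes past the threshold per list by smallest adjusted p, genes next to members and the 3 genes most like the leading member in each direction; others, namely list genes that missed the threshold, EPHA2 and DHX8, were chosen after their values were seen. Gene order and exon length came from GENCODE 29 (GRCh38), joined by Ensembl identifier. Protein sequences were not used here, and a few listed genes are not reported here.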

Additional observations from a re-analysis of the deposited data

Results flagged for a closer look

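Of 66 groups of 4 libraries looked at, 9 held a library whose gap to the next, as a share of the range, exceeded Dixon's 95% critical value, where chance gives about 1 in 20. SPRY1 stood at 182 normalized reads in shSRC1 replicate 4, against 223 to 231 in the other 3 shSRC1 libraries. SPRED1 stood at 1594 in shSRC1 replicate 3, against 1422 to 1429. SPRED2 stood at 5889 in shSRC1 replicate 1, against 5209 to 5310. ETV4 stood at 595 in shNT replicate 3, against 733 to 742 in the other shNT libraries. The same library was low for KRT19, at 46192 against 61703 to 62737, and for KRT8, at 103828 against 137714 to 144690. In shSRC1 replicate 1, KRT19 stood at 101251 against 88481 to 89768 and KRT8 at 235045 against 200794 to 204308. EPHA2 stood at 1050 in shSRC1 replicate 1, against 807 to 842 in the other shSRC1 libraries. Without shNT replicate 3, the log2 fold change of ETV4 was -0.52, with a limma adjusted p of 0.00385.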

How the results depend on the processing

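Over 20 alternative settings, DUSP4, DUSP5, SPRY4, PHLDA1, ETV4 and NCOA1 kept their direction and stayed past the threshold in all 20, and DUSP6 and SPRY1 passed in none. SPRY2 passed in 13, and SPRED1 and SPRED2 in 3 each. NCOA1 and the 10 genes kept their sign in every setting. Genes named without passing the main test, beyond the 10, were not run under the alternatives, nor were the neighbours and the genes of like pattern. SPRED3 fell below the minimum of 50 and was tested in 19. The count of the 10 genes called higher, 2 in the main test, was 1 with no filter on low values and 1 with shNT replicate 3 and shSRC1 replicate 2 both removed, and 1 to 2 with each library left out in turn. The count called lower was 4 throughout that leave-out. Genes called lower in all numbered 1450 to 2251 with each library left out, against 2194, the lowest with shSRC1 replicate 2, the shallowest library, removed. With edgeR on recovered reads and with DESeq2, 4637 and 5304 genes passed, against 4538 in limma, and the 10 genes had 2 higher and 4 lower with each tool. Same-numbered libraries were not paired by the labels, and the correlations of their deviations were 0.24, -0.01, 0.13 and 0.14. With a replicate block, 6398 genes passed, and of the 10 genes 3 were higher and 5 lower, SPRED1 and SPRED2 being added (limma adjusted p = 0.0407 and 0.0458). The same counts, 3 and 5, came with the correction for length and GC content, with or without the block. The 95% intervals of DUSP6 and SPRY1 in limma span 0.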

Other observations

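Among 12684 tested genes with a symbol and a mean of at least 100 normalized reads, the 3 whose values over the 8 libraries were most like those of PHLDA1 were CNTNAP2, C16orf45 and TMEM178B, by Pearson's r of log2(value + 1). Their means were 49.8 in shNT and 154 in shSRC1 for CNTNAP2, 81.2 and 237 for C16orf45, and 287 and 506 for TMEM178B, with r = 0.989, 0.989 and 0.987. For DUSP4 the most alike were NOTUM (447 and 66.6), PRSS30P (215 and 152) and S100A14 (516 and 128), with r = 0.994, 0.992 and 0.992. These coefficients only rank likeness over 8 libraries in 2 groups, and the difference between the groups enters them.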
